A study of Mus musculus with 6 samples.

Results

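The genes described here encode the constant parts of mouse antibodies and the small protein that joins antibodies into polymers. They are the heavy chain genes Ighm (IgM), Ighd (IgD) and Igha (IgA), the kappa light chain gene Igkc, the lambda light chain genes Iglc1 and Iglc2, and Jchain. The 7 genes were chosen by name, all 7 were among the 19449 genes of the single-cell table, and each had at least 1 UMI (a unique molecular identifier, which counts an RNA molecule once) in every library. The cells were CD45+ cells of the spinal cord from C57BL/6 mice with experimental autoimmune encephalomyelitis (EAE), an inflammatory demyelinating disease. It was induced in every recipient by intraperitoneal transfer of CD4+ T cells reactive to the myelin peptide MOG35-55 and polarized with IL-23. Recipients were young (8 to 12 weeks) or middle-aged (40 to 44 weeks), and cells were taken on day 6 or day 10 after transfer, 1 library for each age and day, each pooled from 4 spinal cords. The table held 38057 cells in 16 clusters that the authors deposited. A separate pair of bulk RNA-seq libraries came from sorted microglia (CD45int CD11b+) of naive young and middle-aged mice.

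Resting B cells carry IgM and IgD on the surface, made by alternative splicing of a single transcript, together with a light chain of either the kappa or the lambda type. An activated B cell may replace the IgM constant region with that of IgG, IgA or IgE, and on becoming a plasma cell it devotes much of its RNA to secreted antibody. J chain joins secreted IgM and IgA into polymers and is made mainly by antibody-secreting cells, of which IgA-secreting cells are best known from the gut and other mucosal tissue.

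On the mm10 (GRCm38) genome the heavy chain genes lie on the minus strand of chromosome 12, Igha at chr12:113254830-113260236, Ighd at chr12:113406604-113416324 and Ighm at chr12:113418558-113422730. Igkc lies at chr6:70726435-70726966 on the plus strand, inside the long noncoding gene Gm30211 of the same strand. Iglc1 (chr16:19061618-19062071, minus strand) lies inside a gene on the opposite strand, 2010309G21Rik, and Iglc2 (chr16:19198396-19200351, minus strand) overlaps the joining segment Iglj2. Jchain (chr5:88519809-88527891, minus strand) overlaps no other annotated gene. The sequences below are shown because Iglc2 has a near copy, Iglc3, from which its reads are hard to tell, while Iglc1 differs more. Each line gives 120 bases near the start of the constant exon from the GENCODE transcripts, with capitals at the bases that differ from Iglc2.
Iglc1: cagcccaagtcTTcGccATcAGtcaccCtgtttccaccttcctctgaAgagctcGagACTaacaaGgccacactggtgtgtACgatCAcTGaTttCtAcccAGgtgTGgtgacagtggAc
Iglc2: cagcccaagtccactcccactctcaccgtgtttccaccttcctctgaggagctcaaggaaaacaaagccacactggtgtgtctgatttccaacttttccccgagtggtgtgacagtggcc
Iglc3: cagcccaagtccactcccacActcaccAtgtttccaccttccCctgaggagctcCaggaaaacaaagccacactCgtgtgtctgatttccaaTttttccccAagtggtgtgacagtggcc
Iglc1 differed from Iglc2 at 28 of these bases. Iglc3, another lambda constant gene, differed from Iglc2 at only 7, and the longest exact run shared by the Iglc2 and Iglc3 transcripts was 79 bases, against 19 for Iglc1 and Iglc2. The counts of Iglc2 and Iglc3 taken singly are uncertain, since reads could be split between them.

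Summed over the 4 libraries, cluster 4 held most of the UMIs of each gene, from 54.2% of Ighm to 97.9% of Igha. By library its share of Ighm was 44.6% (young day 6), 53.3% (young day 10), 66.0% (middle-aged day 6) and 54.6% (middle-aged day 10). In the young libraries of day 6 and day 10 cluster 4 held 5 of 14 and 4 of 13 Igha UMIs, and 0 of 1 and 0 of 8 Jchain UMIs. Its 1360 cells carried the B cell markers fixed for the check: all 8 were detected, Cd79a, a signalling partner of the B cell receptor, reached 2420 CPM (UMIs of the gene per 1000000 UMIs) and Ms4a1, which encodes CD20, 949 CPM, against at most 33.0 and 14.7 CPM in any of clusters 0 to 3 and 5 to 13. Cluster 4 is called B cell-like below. The markers of plasma cells were not a mark of the whole cluster: Mzb1, a chaperone of antibody assembly, reached 427 CPM, but Tnfrsf17, the receptor BCMA, only 3.13 CPM and Sdc1 (CD138) 5.05 CPM. The cluster had 295 cells in the young library of day 6, 543 in the young library of day 10, 184 in the middle-aged library of day 6 and 338 in the middle-aged library of day 10, or 3.55%, 5.52%, 1.84% and 3.42% of the cells. The median cell of cluster 4 had between 2402 and 2997 UMIs in the 4 libraries. Library totals ranged from 57337626 to 69859331 UMIs, and between 13 and 36 cell barcodes were shared by any pair of libraries. Each age and day is 1 library, so intervals below cover counting error only, and differences between the mice of a pool cannot be told apart.

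Cells rich in Igha or Jchain were found in cluster 4 of the middle-aged libraries and not of the young ones. Cells with 10 or more UMIs of Igha or of Jchain numbered 4 of 184 in the middle-aged library of day 6 (2.17%, exact 95% interval 0.595 to 5.47%) and 7 of 338 in the middle-aged library of day 10 (2.07%, 0.837 to 4.22%). There were 0 of 295 in the young library of day 6, which allows a share of up to 1.02%, and 0 of 543 in that of day 10, which allows up to 0.552%. The limits of the young libraries lie inside the intervals of the middle-aged ones on day 6, and below the interval on day 10. With a threshold of 5 UMIs the counts were 5 and 10 in the middle-aged libraries and 0 in both young ones, and with 20 UMIs they were 4 and 2 against 0. By highest UMI number of either gene, the cell just inside the threshold of 10 had 11 and the next had 9.

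These 11 cells were of very different kinds. In the middle-aged library of day 6, the first cell had 21419 UMIs, of which 3373 were Igha, 7400 Igkc and 1289 Jchain, so that antibody genes made up 56.7% of its RNA. The second had 720 Ighm, 5563 Igkc and 569 Jchain UMIs (57.5% of 12008). The fourth, also an IgM cell, had 1729 Ighm, 2148 Igkc and 59 Jchain UMIs (39.8% of 9971). The third stood apart, with 177 Igha and 636 Igkc UMIs but no Jchain, and antibody genes at 6.46% of 14563 UMIs. In the middle-aged library of day 10 the first cell joined Igha (869 UMIs) to a lambda chain, Iglc1 (4613 UMIs), with 195 of Jchain and none of Igkc. The second was an IgG cell, with 1672 UMIs of Ighg2c, 10273 of Igkc and 68 of Jchain. In no other cell of cluster 4 did antibody genes exceed 6.76% of the UMIs, so 5 cells, 3 on day 6 and 2 on day 10, stood above 20%. By their most abundant heavy chain the 5 were IgA, IgM and IgG2c cells, and 4 of them used kappa.

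**Figure D1:**
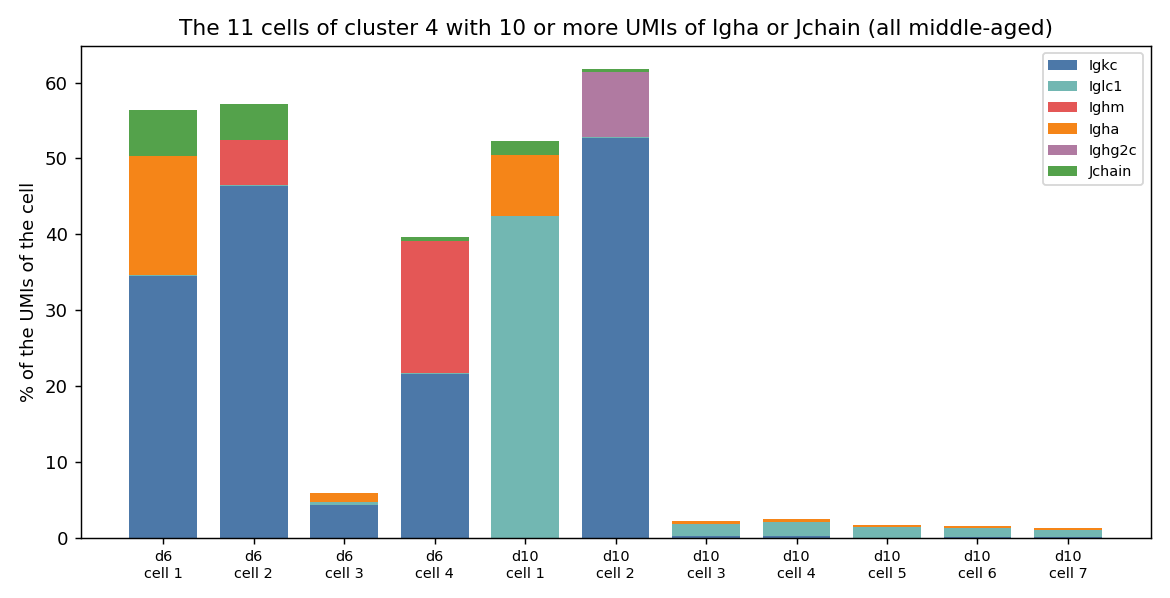
Share of each cell's UMIs (%, vertical axis, stacked bars) taken by 6 antibody genes in the 11 cells of cluster 4 with 10 or more UMIs of Igha or Jchain, numbered within the middle-aged libraries of day 6 and day 10. The bars of 5 cells reach 39.8% to 62.0%, with kappa as the light chain in 4 and Iglc1 in 1, and the other 6 stay below 7%.

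The other 5 cells of the middle-aged library of day 10 had 11 to 19 UMIs of Igha, 52 to 81 of Iglc1, at most 9 of Igkc, and none of Ighm, Ighd or Jchain. They had 4005 to 6779 UMIs and kept B cell markers, with Cd79a at 2 to 11 and Ms4a1 at 2 to 15 UMIs. They carried the same pair of chains as the first cell of that library, which had 869 Igha and 4613 Iglc1 UMIs. This was looked at further after the values were seen, with cells of 3 or more Igha UMIs. In the middle-aged library of day 10, 13 cells met this, all with 10 or more light chain UMIs, and Iglc1 gave at least 50% of the light chain UMIs in 8 (61.5%), against 5 of 291 cells with fewer Igha UMIs in the same library (1.72%). Of the 8, 6 are the cells already described, and among the 7 cells with 3 to 9 Igha UMIs 2 were of the Iglc1 kind. In the middle-aged library of day 6, 3 cells had 3 or more Igha UMIs and none was of the Iglc1 kind, and the single such cell of the young library of day 6 had 15 Igkc and 0 Iglc1 UMIs. Whether the cells of day 10 share a V region was not tested.

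Genes of antibody secretion were high in the 5 cells filled with antibody RNA and less so in the other 6. Over all 11, the 18 genes of the plasma cell program list summed to 9765 CPM in the middle-aged library of day 6 and 4904 CPM in that of day 10, against 1340 to 1546 CPM in the remaining cells of the 4 libraries. In the 5 cells above 20% the list stood at 9368 CPM, in the other 6 at 3674 CPM and in the rest of the cluster at 1396 CPM. Xbp1, the transcription factor of the secretory program, had 75 UMIs (1017 CPM) in the 5 cells and 6 (155 CPM) in the 6, against 38.8 CPM in the rest of the cluster. Txndc5 and Creld2, which help proteins fold in the endoplasmic reticulum, were at 1085 and 651 CPM in the 5, 388 and 77.6 CPM in the 6 and 62.8 and 15.3 CPM in the rest. Of the 13 UMIs of Tnfrsf17 in the cluster, 12 were in the 5 cells and 1 in the 6. Irf4, a factor that plasma cells need, was at 53.4 CPM over the 11 against 59.8 CPM. The 8 B cell markers together were at 597 CPM in the 5 cells and 4347 CPM in the 6, against 6816 CPM in the rest, and the first cell of day 10 had 1 UMI of Cd79a and none of Cd79b or Ms4a1. Since the cells were picked by Igha and Jchain, these values are a description and were not tested.

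The same cells held most of the Igha and Jchain RNA of the cluster. Igha was at 5.60 CPM (5 UMIs) in the young library of day 6, 2.73 CPM (4 UMIs) in that of day 10, 5715 CPM (3556 UMIs) in the middle-aged library of day 6 and 842 CPM (992 UMIs) in that of day 10. Both middle-aged values were higher, but a single cell gave 94.9% of the Igha UMIs on day 6 and 87.6% on day 10. With the 11 cells left out, Igha was at 10.6 CPM (6 UMIs) and 43.6 CPM (49 UMIs) in the middle-aged libraries. The remaining difference on day 10 was a log2 ratio of 4.00 (95% counting interval 2.55 to 5.93), and on day 6 it was 0.93 (−1.05 to 2.98), which spans no difference.

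Jchain had 0 UMIs in cluster 4 of both young libraries, 1917 (3081 CPM) in the middle-aged library of day 6 and 263 (223 CPM) in that of day 10. Against the floor of 3 UMIs in a young library, the middle-aged level was at least 917-fold higher on day 6 and at least 109-fold higher on day 10. The 1917 UMIs lay in 3 cells and the 263 in 2, all among the 11, and no other cell of cluster 4 had a Jchain UMI.

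Igkc, the most abundant of the 7, was at 9883 CPM in the young library of day 6, 6781 CPM in that of day 10, 33741 CPM in the middle-aged library of day 6 and 14766 CPM in that of day 10. Both middle-aged values exceeded both young ones. The log2 ratio of middle-aged to young was 1.77 (1.74 to 1.81) on day 6 and 1.12 (1.09 to 1.16) on day 10. Without the 11 cells the middle-aged libraries were at 9299 and 6317 CPM, just below the young library of the same day, with log2 ratios of −0.09 (−0.14 to −0.04) and −0.10 (−0.15 to −0.06). The cells left out were all middle-aged, so leaving them out itself lowered Igkc on that side, and no young cell was removed. The median cell had 90.5, 64.0, 84.6 and 56.6 UMIs of Igkc per 10000 in the order young day 6, young day 10, middle-aged day 6 and middle-aged day 10.

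Iglc1, a lambda chain, was lower in the middle-aged library on day 6 and higher on day 10. It was at 1327 CPM in the young library of day 6 and 887 CPM in the middle-aged one, but on day 10 at 493 CPM in the young and 4577 CPM in the middle-aged library. There the lambda IgA cell held 85.6% of the UMIs, and without the 11 cells the middle-aged level on day 10 was 381 CPM, below the young one (log2 ratio −0.37, −0.55 to −0.20). The cells left out there were mostly Iglc1 cells, so leaving them out itself lowered Iglc1. Ighm, the chain of IgM, was at 3561, 2059, 6586 and 2025 CPM in the order young day 6, young day 10, middle-aged day 6 and middle-aged day 10. A cell with 1729 UMIs gave 42.2% of the middle-aged value of day 6, which fell to 2922 CPM without the 11 cells. Here too no young cell was removed. Ighd, the chain of IgD, and Iglc2 varied less, from 446 to 683 CPM and from 919 to 1524 CPM, and no Ighd UMI lay in the 11 cells. Ighd was lower in the middle-aged than the young library on day 10 (log2 ratio −0.62, −0.77 to −0.46), a difference that stayed without the 11 cells (−0.55, −0.70 to −0.39).

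**Figure D2:**
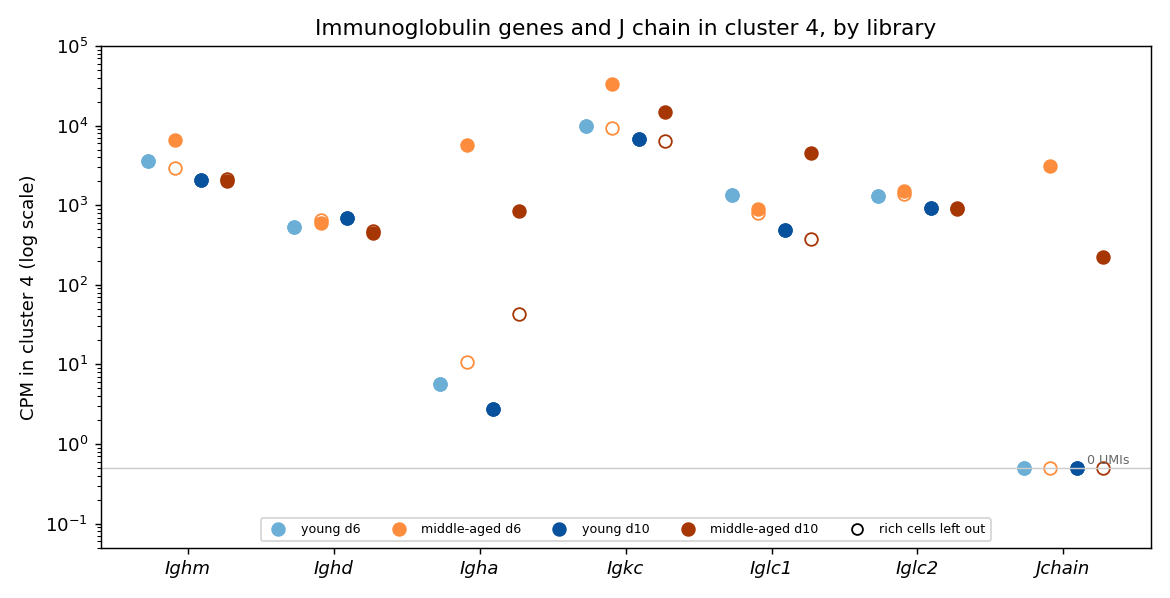
Level of each gene in cluster 4 (CPM, log axis) in the 4 libraries, with all cells (filled points) and without the 11 cells of 10 or more Igha or Jchain UMIs (open points, drawn where cells were left out), and a line at which 0 UMIs are drawn. The filled middle-aged points of Igha, Jchain and Igkc lie above the young ones, and the open points of Igkc lie near them, at 9299 CPM beside 9883 CPM on day 6.

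Over single libraries, genes with 100 or more UMIs in both ages together were compared. Igha and Jchain reached 100 only through the middle-aged library, so they had to be higher and are not counted. Of the other 5, Igkc was at least 2-fold higher in cluster 4 of the middle-aged library on day 6. Of 1885 genes, 0.424% were that much higher there and 1.96% lower. On day 10 Igkc and Iglc1 were 2-fold higher, where 0.645% of 2946 genes were higher and 0.272% lower. None of the 5 was 2-fold lower on either day. Without the 11 cells none of the 5 passed 2-fold in either direction (0.217% of 1840 genes higher and 1.58% lower on day 6, 0.415% of 2895 higher and 0.207% lower on day 10). In a fit over the 4 libraries with age and day as terms (edgeR quasi-likelihood test, 1 residual degree of freedom, Benjamini-Hochberg adjusted over 7364 genes), 2 of the 5 genes that could be tested freely, Igkc and Iglc1, rose with age and none fell, beside 0.896% of all genes called, 0.693% higher and 0.204% lower. Igkc rose by 1.57 ± 0.34 on the log2 scale (adjusted p = 0.00105) and Iglc1 by 1.47 ± 0.26 (adjusted p = 1.06e-05). Igha and Jchain passed the filter only through the middle-aged libraries, so they had to differ if they were tested, and their calls are not counted. Ighm was at 0.56 ± 0.25 (adjusted p = 0.528), Iglc2 at 0.23 ± 0.20 (adjusted p = 0.919) and Ighd at −0.11 ± 0.18 (adjusted p = 0.97). With the 11 cells left out, the same 5 were tested and none was called (0.547% of 7319 genes were, 0.342% higher and 0.205% lower): Igkc was at −0.01 ± 0.29 (adjusted p = 0.997) and Iglc1 at −0.47 ± 0.18 (adjusted p = 0.373). The DESeq2 Wald test on all cells called neither, with Igkc at 1.57 ± 0.41 (adjusted p = 0.158) and Iglc1 at 1.44 ± 1.39 (adjusted p = 1.00). With 1 library left out, which leaves age as the only term, Igkc was at 0.94 ± 0.61 without the middle-aged library of day 6 (adjusted p = 0.999) and at 2.17 ± 0.76 without that of day 10 (adjusted p = 0.699), larger than with all libraries but with a larger error. Iglc1 was at 0.15 ± 0.37 without the middle-aged library of day 10 (adjusted p = 0.994), and Ighm was called only without the young library of day 6 (1.12 ± 0.17, adjusted p = 2.14e-08).

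Over all cells of a library rather than cluster 4, Igha alone of the 7 was called for age by edgeR, with 14 and 13 UMIs in the young libraries against 3595 and 1033 in the middle-aged ones (log2 fold change 7.33 ± 0.40, edgeR adjusted p = 0.00807; 0.0136% of 14729 genes were called, 0.00679% higher and 0.00679% lower). It was not called with any of the 4 libraries left out (adjusted p from 0.294 to 1.00). Igkc was at 203 and 189 CPM in the young libraries against 376 and 317 CPM in the middle-aged ones (edgeR adjusted p = 0.63). Jchain had 1 and 8 UMIs in the young libraries and 1932 and 404 in the middle-aged ones. It passed the filter only through the middle-aged libraries, so its calls for age are not counted. Other settings drew the line elsewhere. DESeq2 called Igha (adjusted p = 4.00e-59) and Igkc (0.0296), edgeR without the filter called Igha (0.00255), and edgeR with RLE size factors called none of the 7 (Igha 0.0605).

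From day 6 to day 10, Iglc1 in cluster 4 fell in the young libraries, and in the middle-aged ones only without the 11 cells. With all cells the middle-aged libraries went from 887 to 4577 CPM (log2 ratio 2.37, 2.24 to 2.50). The cells left out of the middle-aged library of day 10 were mostly Iglc1 cells, so leaving them out itself lowered Iglc1 there. With the 11 cells left out, Iglc1 went from 1327 to 493 CPM in the young libraries and from 790 to 381 CPM in the middle-aged ones, a log2 ratio of −1.43 (−1.56 to −1.29) and −1.05 (−1.25 to −0.86). In this selection both ages went the same way. In the fit over the 4 libraries without those cells Iglc1 fell by 1.18 on the log2 scale with a standard error of 0.18 (edgeR adjusted p = 2.05e-08, DESeq2 adjusted p = 4.80e-05). There 2.98% of 7319 genes were called, 1.82% lower and 1.16% higher. This fit rests on the same selection. With all cells Iglc1 was at 0.52 ± 0.26 and was not called (edgeR adjusted p = 0.415). Cells in which Iglc1 was at least 50% of the light chain, with 10 or more UMIs of it, numbered 16 of 295 in the young library of day 6, 8 of 543 in that of day 10, 8 of 180 in the middle-aged library of day 6 and 7 of 331 in that of day 10. These counts also leave out the 11 cells. Ighm went from 3561 to 2059 CPM and from 2922 to 2117 CPM without the 11 cells, and Igkc from 9883 to 6781 and from 9299 to 6317 CPM, but neither was called (edgeR adjusted p = 0.18 and 0.511). Genes of B cell identity fell too: in the edgeR fit without the 11 cells 3 of 12 were lower with day and none higher. Their median was −0.32, with Cd79b at −0.79 and Ms4a1 at −0.71 (DESeq2 adjusted p = 0.0255 and 0.377). Ighd did not follow the other antibody genes. It was higher on day 10 in the young libraries (532 against 683 CPM) and lower in the middle-aged ones (661 against 467 CPM), so the ratio of Ighd to Ighm UMIs without the 11 cells was 0.148, 0.333, 0.226 and 0.220 in the order young day 6, young day 10, middle-aged day 6 and middle-aged day 10.

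With all cells kept, 3 of the 7 were lower with day in edgeR (2.77% of 7364 genes were called, 1.74% lower and 1.03% higher), and DESeq2 called none of them. Ighm fell by 1.20 on the log2 scale with a standard error of 0.25 (edgeR adjusted p = 2.70e-04, DESeq2 adjusted p = 1.00), while Igha and Jchain had edgeR adjusted p-values of 1.09e-14 and 9.12e-33 that rest on the 2 middle-aged libraries (DESeq2 adjusted p = 1.00 for both). Without either middle-aged library, Igha and Jchain could not be fitted, and without the young library of day 10 neither was called (adjusted p = 0.996 and 0.979). Ighm was not called without the young or the middle-aged library of day 10 (adjusted p = 0.807 and 0.404). Over all cells of a library, Igha and Ighm fell with day, by 1.87 and 0.79 on the log2 scale (edgeR adjusted p = 0.0175 and 0.0202), where 14.1% of 14729 genes were called, 9.13% lower and 4.93% higher. Neither was called there with any 1 library left out.

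Most of the cells of cluster 4 were IgM and IgD cells. Of cells with 3 or more heavy chain UMIs, 97.9% (279 of 285) in the young library of day 6, 97.5% (477 of 489) in that of day 10 and 98.8% (168 of 170) in the middle-aged library of day 6 had at least 90% of those UMIs from Ighm and Ighd. In the middle-aged library of day 10 the share was 86.8% (269 of 310, 82.5 to 90.3%), below the intervals of the other 3, with 10 cells of Igha, 10 of Ighg genes and 21 mixed. The IgG count was 2, 3 and 0 in the other libraries. An Ighd UMI was found in 60.3%, 72.6%, 72.3% and 62.7% of the cells in the order above, and after thinning each cell to 1000 UMIs in 35.4%, 48.1%, 50% and 35.8%, leaving out 4 shallower cells, all of them young. Cluster 2, of T cell markers, is a background for this B cell gene: there 0.0880 to 0.884% of cells had an Ighd UMI, at median depths of 4715 to 6225 UMIs.

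Lambda cells were a minority. Of cells with 3 or more light chain UMIs, lambda genes (Iglc1, Iglc2 and Iglc3) made up 90% or more in 6.53% (19 of 291) of the young library of day 6, 3.35% (18 of 537) of that of day 10, 5.46% (10 of 183) of the middle-aged library of day 6 and 8.63% (29 of 336) of that of day 10. The interval of the young library of day 10 ended at 5.25%, below the start of that of the middle-aged one at 5.86%, and the other intervals overlapped. Without the 11 cells the middle-aged share of day 10 was 6.99% (23 of 329, 4.48 to 10.3%), which overlaps the young one. Between 26.8 and 34.5% of the cells were kappa by the same rule, and 62.2 to 67.8% had UMIs of both types above that margin. Iglc2 had a UMI in 70.3 to 82.1% of the cells.

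Genes of the antibody secretion program were called for age with the 11 cells and not without them. In cluster 4 with all cells, 3 of the 14 tested genes of the plasma cell list rose with age and none fell: Xbp1 by 1.24 ± 0.22, Creld2 by 1.52 ± 0.31 and Txndc5 by 0.97 ± 0.20 on the log2 scale (edgeR adjusted p = 1.95e-05, 2.60e-04 and 3.40e-04). Over all 7364 genes 0.693% were called higher with age and 0.204% lower. The list median was 0.54 beside 0.00 over all genes. Without the 11 cells none of the 14 was called, and the median was 0.03, where 0.342% of 7319 genes were higher and 0.205% lower. The 11 cells held 81 UMIs of Xbp1, 51 of Creld2 and 95 of Txndc5, against 157, 62 and 254 in the rest of the cluster. They were all middle-aged and picked by Igha or Jchain, so leaving them out itself lowered these genes on the middle-aged side. The contrast with and without those cells is therefore a description and not a test. None of the 12 genes of B cell identity was called for age, with or without those cells, and the median was −0.12 with them. Of 4 other antibody genes tested, Iglv1, the V segment usually joined to Iglc1, was at 2.70 ± 0.40 for age with all cells. It passed the filter only with the 11 cells, all of them middle-aged, so its call is not counted. Vpreb3, a chaperone of light chain assembly in developing B cells, was lower with age in edgeR with and without the 11 cells, at −0.95 ± 0.18 and −0.89 ± 0.17 (adjusted p = 1.07e-04 and 3.06e-04), but not in DESeq2 (adjusted p = 0.0584 and 0.182) and not without the middle-aged library of day 10 (−0.43, adjusted p = 0.97) or the young one of day 6 (−0.37, adjusted p = 1.00). With all 4 libraries it was lower with day by both tools (−1.08 ± 0.18, edgeR adjusted p = 1.11e-06, DESeq2 adjusted p = 0.00245). This day effect depended on single libraries: it was −0.59 without the middle-aged library of day 10, −0.56 without the young one of day 6 and −1.67 without the young one of day 10. Ighg2b, an IgG chain, was at 2.48 ± 0.38 for day (edgeR adjusted p = 2.65e-08, DESeq2 adjusted p = 1.00). Of 5 tested receptors for antibody, Fcer1g, the shared gamma chain of Fc receptors in myeloid cells, rose with age by 1.13 ± 0.22 (adjusted p = 1.38e-04; 0.83 and adjusted p = 0.0539 without the 11 cells), and none of the 2 tested mucosal genes was called. DESeq2 called none of Xbp1, Creld2, Txndc5, Fcer1g (adjusted p = 1.00 each) and Iglv1 (adjusted p = 0.238) for age. With each of the 4 libraries left out in turn, the age effect of Iglv1 ranged from 1.97 to 3.50, in fits that still held cells rich in Igha or Jchain. Among these fits the lowest age effect of Xbp1 was 0.91 (without the young library of day 10). That of Fcer1g was 0.79 (without the young library of day 6). Creld2 ranged from 0.79 without the middle-aged library of day 6 to 2.25 without that of day 10. Txndc5 ranged from 0.68 to 1.31 between those fits. The calls given for these genes are those of the edgeR fit over all 4 libraries.

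Outside cluster 4 the genes were present at 3 levels. First, clusters 14 (154 cells) and 15 (59 cells) had B cell markers among their leading genes and antibody levels below those of cluster 4, with Igkc at 2694 and 1955 CPM against 13746 CPM and Ighm at 1159 and 917 CPM against 3050 CPM over the 4 libraries. Neutrophil markers came next in cluster 14 and T cell markers in cluster 15, so they are called by number only. Second, 223 of 36484 cells in clusters 0 to 3 and 5 to 13 (0.611%) had 10 or more UMIs of the 7 genes, and 199 of these had 2 or more UMIs of B cell markers such as Cd79a and Ms4a1. Their median depth was 11085 UMIs against 5762 in the cells with fewer, and whether they hold 2 cells was not tested. Their Igkc to Ighm ratio was 2.63 over all, beside 3.04 in cluster 4 without the 11 cells. By library it was 1.78 (young day 6), 2.77 (young day 10), 1.94 (middle-aged day 6) and 5.13 (middle-aged day 10), against 2.78 to 3.29 in cluster 4. The middle-aged library of day 10 includes a single cell of cluster 11 with 1719 Igkc and 151 Ighm UMIs, which was not left out. The share of such cells was 0.976 and 0.664% in the young libraries of day 6 and day 10 and 0.418 and 0.453% in the middle-aged ones.

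The third level was a low, broad signal, in which Ighm exceeded Igkc. With clusters 14 and 15, the cells above and cells of 2 or more B cell marker UMIs left out, Ighm was at 45.6 CPM in the young library of day 6, 21.8 CPM in that of day 10, 22.7 CPM in the middle-aged library of day 6 and 17.2 CPM in that of day 10, while Igkc was at 2.20, 5.39, 3.57 and 4.16 CPM. The Igkc to Ighm ratios were 0.0482 to 0.248, where cluster 4 without the 11 cells had 2.78 to 3.29. Ighm was above Igkc in all 13 clusters of 3 libraries and in 11 of 13 in the middle-aged library of day 6, where cluster 12 had 4 cells and no UMI of either and cluster 3 had 4 UMIs of each. The rule that left cells out counts Igkc, the most abundant of the 7, so it itself lowered this ratio. With every cell kept, the ratio over the 4 libraries was 1.29 in cluster 1, 1.51 in cluster 8 and 2.71 in cluster 11. In the rest of the 13 clusters it was 0.0988 to 0.625. With those cells left out, Ighm in young day 6 was the highest of the 4 libraries in 11 of the 13 clusters. What gives Ighm in these cells was not tested.

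By cluster, the low Ighm signal summed over the 4 libraries was highest in cluster 10, which carried microglia markers (69.6 CPM), at 88.1 CPM (young day 6), 63.1 CPM (young day 10), 66.2 CPM (middle-aged day 6) and 59.7 CPM (middle-aged day 10), with an Ighm UMI in 33.7 to 40.4% of the cells. Igkc in the same cells was at 1.504 to 5.575 CPM. In the dendritic cell-like cells of cluster 7 Ighm was at 73.7, 96.7, 43.3 and 54.7 CPM in that order, and in the NK cell-like cells of cluster 9 at 54.9, 63.2, 39.6 and 65.5 CPM. The ranges of the 3 clusters overlap, and cluster 10 was below cluster 9 in both libraries of day 10 and below cluster 7 in the young one. Over the 4 libraries together it was lowest in cluster 1, with macrophage and monocyte markers, at 25.7, 4.77, 6.96 and 4.94 CPM, although its cells had 8278 to 10057 UMIs in the median. Cluster 0, of neutrophil markers, lay between (37.7, 20.0, 33.4 and 13.2 CPM) with 2193 to 2365 UMIs a cell. Cluster 8, which like cluster 10 carried microglia markers, was at 82.5, 29.4, 55.8 and 29.8 CPM in the same order. Over the 4 libraries cluster 8 was at 39.3 CPM, against 69.6 CPM in cluster 10, so the level differed between the clusters with microglia markers.

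**Figure D3:**
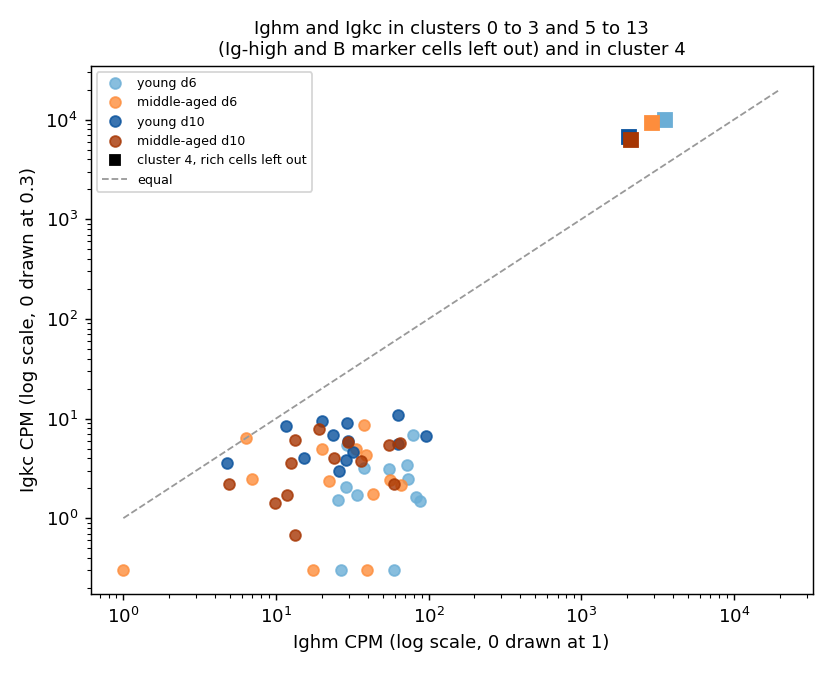
Igkc against Ighm (CPM, both log axes) in each of clusters 0 to 3 and 5 to 13 and each library after leaving out cells with 10 or more UMIs of the 7 genes or 2 or more of B cell markers (circles), and in cluster 4 without the 11 rich cells (squares), with a dashed line where both are equal. Values of 0 are drawn at the marks named on the axes. The squares lie above the line and the circles below it, apart from cluster 3 of middle-aged day 6 with equal values on the line and cluster 12 of that library, which had no UMI of either gene.

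Sorted naive microglia had Ighm reads in bulk RNA, with almost none counted for a light chain. Ighm had 24941 reads in the young and 22942 in the middle-aged library (314 and 301 CPM of 79373420 and 76293436 reads), and Ighd 823 and 654 reads. Igkc had 4 and 0 reads, Jchain 6 in each, and Igha, Iglc1 and Iglc2 none. The reads were counted without strand, and Igkc, Iglc1 and Iglc2 overlap other annotated genes while Ighm overlaps none. Whether reads that overlap another gene were missed in the light chain counts was not tested. Per exon length, Ighm was at 167 and 159 RPKM (reads per 1000 bases of exon and 1000000 reads) and Igkc at 0.0947 and 0. Joining segments of the heavy chain locus (Ighj genes) had 551 and 482 reads, heavy chain V genes 16 and 9, and the 163 light chain V genes 0. Of the B cell markers Ms4a1 had 2 and 4 reads, Cd79a 32 and 26, and Cd79b 1933 and 1560. Tmem119, a microglia marker, had 266344 and 261668 reads. With 1 library an age, no test was made, and the log2 ratio of middle-aged to young for Ighm was −0.06 (counting interval −0.09 to −0.04).

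In the middle-aged libraries of day 6 and day 10, 1.08% and 3.97% of the Igha UMIs lay outside cluster 4. The low-signal cells had 0 and 9 Igha UMIs in the young libraries of day 6 and day 10, against 32 and 27 in the middle-aged ones. Iglc1 was highest in the middle-aged library of day 6, at 2.33 CPM against 0.226 to 1.16 CPM in the others, and it was highest there in 10 of 13 clusters. Cluster 4 held 552 of the 767 Iglc1 UMIs of that library. For Jchain, 141 of 404 UMIs of the middle-aged library of day 10 lay outside cluster 4, and 138 of these were in a single cell of cluster 11, whose leading genes include the basophil genes Mcpt8 and Prss34. That cell had 19014 UMIs, with 1719 of Igkc, 151 of Ighm, 62 of Mzb1, 35 of Xbp1, 78 of Cd79a, 51 of Vpreb3 and 18 of Mki67, a gene of dividing cells. Without it and the other cells of 10 or more UMIs, 1.13% of the Jchain UMIs of that library lay outside cluster 4.

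**Figure D4:**
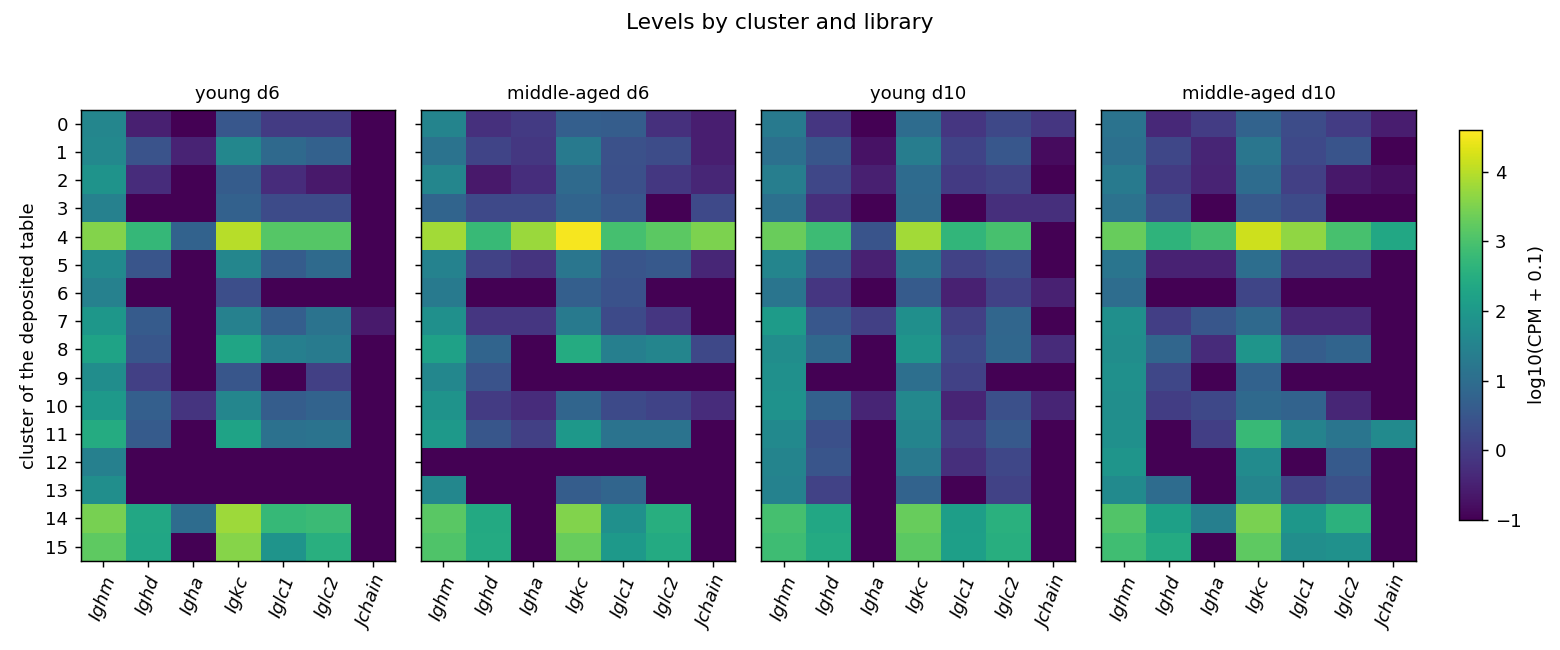
Level of the 7 genes (colour, log10 of CPM + 0.1, with dark at 0) in the 16 clusters (rows) of each of the 4 libraries (panels). Clusters 4, 14 and 15 are bright for Ighm and Igkc in every panel, Jchain is bright only in cluster 4 of the middle-aged panels and cluster 11 of middle-aged day 10, and Ighm keeps a faint signal in nearly every row.

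A group of cells in cluster 7 was chosen after the values were seen. Among the 1432 cells of cluster 7, 62 had 5 or more UMIs of Siglech, a marker of plasmacytoid dendritic cells, and these also carried Ccr9 (789 CPM against 3.32 CPM in the 1306 cells of the cluster with no Siglech UMI), Tcf4 (1103 against 146 CPM) and Klk1 (457 against 0.0755 CPM). Ighm was at 561 CPM in them against 57.9 CPM in those 1306 cells, with a UMI in 59 of 62 cells. The light chain was largely Iglc3 (506 against 1.51 CPM, in 46 cells) with little Iglc2 (29.3 CPM), while Igkc, at 210 CPM, was found in 21 cells, up to 30 UMIs in 1. Jchain and Igha had 0 of 614611 UMIs, which allows up to 3. Leaving out cells with 2 or more B cell marker UMIs from both sides, Ighm was at 530 against 53.0 CPM and Iglc3 at 525 against 0.153 CPM. By library, Iglc3 was at 490, 479, 399 and 630 CPM, with 23, 15, 10 and 14 cells, in the order young day 6, young day 10, middle-aged day 6 and middle-aged day 10.

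Across the 63 sums by cluster and library, the level of most members followed B cell genes. The gene most like Igkc was Cd79a (Pearson r = 0.96 of log2(CPM + 1)), the one most like Ighd was Fcmr, the IgM receptor (0.97), that of Iglc2 was Ms4a1 (0.97) and that of Ighm Cd79b (0.91). Jchain and Igha had no close neighbour. Fkbp11, a chaperone of the secretory pathway, was first for Jchain (0.55) and second for Igha (0.64), with Gm20429 first (0.64), and Jchain and Igha had r = 0.84 with each other but a Spearman rho of 0.29. By Spearman correlation, the 3 nearest genes of Ighm, Igha, Iglc1 and Jchain had 0 in common with those by Pearson correlation, and those of Igkc and Iglc2 were the same 3. These sums share libraries and clusters 4, 14 and 15 carry most of the signal, so the values are descriptions.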

How the data were processed

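Cells of 4 single-cell libraries (10x Genomics v3) and 2 bulk libraries were used. Per the labels and the study's methods, the authors made the deposited UMI counts with Cell Ranger 3.1.0 on mm10, removed cells and genes of low quality, and clustered the integrated libraries with Seurat; the deposited cluster numbers were taken as they are. Doublets were not called here. The deposited bulk counts are reads per gene, counted by the authors without strand on GRCm38. The members and all lists were chosen with earlier results of these data known. The named genes were the 7 members, fixed lists of other antibody, B cell, plasma cell, mucosal and receptor genes, and for each member the 3 genes most like it.

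UMIs were summed per library and cluster and divided by the total of that sum (CPM). Since a UMI counts a molecule once, no length correction was made. Shares have exact (Clopper-Pearson) and ratios exact conditional binomial 95% intervals, which cover counting error only; a count of 0 allows 3. The test across genes was edgeR 4.0.16 (quasi-likelihood, TMM scaling, terms for day and age) on genes with 10 or more UMIs in 2 or more libraries, with standard errors taken as the log2 fold change over the square root of F; DESeq2 1.42.0 was an alternative. As each library is alone in its group, the spread comes from 1 residual degree of freedom shared over all genes. On data simulated for the age effect in cluster 4, with 7055 genes, the test recovered 183 of 200 genes changed 4-fold and called 13 others. The simulated counts had the same dispersion for every gene and no single cell that held most of a gene's UMIs. They do not show how the test behaves for genes such as Igkc and Iglc1, where single cells did. Leaving out the 11 cells from the fits and the groups of Igha cells and Siglech cells were chosen after the data were seen. Gene positions are those of GENCODE vM21. One B cell marker is not reported here.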

Additional observations from a re-analysis of the deposited data

Results flagged for a closer look

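The age difference in cluster 4 had estimates of opposite sign on the 2 days for 4 genes, each from 1 library an age and day, so the difference between days was not tested. For Iglc1 the log2 ratio of middle-aged to young was −0.58 on day 6 and 3.21 on day 10. For Ighm it was 0.89 and −0.024, for Ighd 0.17 and −0.62, and for Iglc2 0.22 and −0.0072. The counting intervals of Ighm and Iglc2 on day 10 and of Ighd on day 6 span no difference, so with all cells only Iglc1 had both intervals away from 0. Without the 11 cells rich in Igha or Jchain the ratios were −0.75 and −0.37 for Iglc1 and −0.28 and 0.04 for Ighm.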

How the results depend on the processing

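No paired analysis was possible because each age and day is a single library, so that replicate numbers pair no samples; day is a term of the age model, and with a library left out only 1 term could be fitted. The number of cells rich in Igha or Jchain was 11, 15 with 5 UMIs or with 0.1% of the UMIs of the cell, and 6 with 20 UMIs. Genes called for age in cluster 4 numbered 66, 2 with DESeq2, 4 with day left out of the model, 40 without the 11 cells and 8 to 107 with a library left out (8 without the middle-aged library of day 10). Genes called for day there numbered 204, 17 with DESeq2, 56 with age left out and 1 to 362 with a library left out (1 without the young library of day 10). Over all cells the age effect gave 2 genes, 0 with RLE size factors (638 at an unadjusted p under 0.05) or with day left out (122), 6 without the filter, 27 with DESeq2 and 0 to 0 with a library left out; the day effect gave 2071, and 0 to 2325 with a library left out (0 without the young and 26 without the middle-aged library of day 10).

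Leaving out the 11 cells turned the middle-aged to young log2 ratio of day 6 to −0.28 for Ighm and −0.088 for Igkc, and that of day 10 to −0.10 for Igkc and −0.37 for Iglc1. All 11 were middle-aged, so this selection acted on that age only. Averaging log-normalized values over cells gave −0.36 for Ighm on day 6 and −0.35 for Igkc on day 10. In the fit, the 11 cells left out gave age effects of −0.0070 for Igkc and −0.47 for Iglc1 (−0.0046 and −0.47 with DESeq2) and a day effect of −1.18 for Iglc1 (−1.18 with DESeq2). Without the middle-aged library of day 6, the day effect of Igkc in cluster 4 was 0.29 and that of Igha over all cells 4.91; with a library left out they ranged from −1.70 to 0.29 and from −7.52 to 4.91. In young cluster 4, 0 to 5 UMIs of Igha and Jchain were counted per library, of 893107 and 1463285 UMIs in all, more than the 622216 and 1177999 of the middle-aged libraries.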
